A study of Mus musculus with 6 samples.

Results

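The genes described here encode the core machinery that makes microRNAs and carries out silencing: Drosha, Dgcr8, Xpo5, Dicer1, Ago1, Ago2, Ago3, Tnrc6a, Tnrc6b and Tnrc6c. Members were all probe sets annotated to 1 of these 10 genes and to no other gene, which gave 36 of the 45037 probe sets that were not array controls. Each gene was represented, by 1 probe set for Ago1, 2 each for Xpo5 and Dicer1, 3 each for Drosha, Tnrc6b and Tnrc6c, 4 each for Dgcr8 and Ago2, 5 for Ago3 and 9 for Tnrc6a. RNA of mouse hippocampus was hybridised to 6 Affymetrix arrays with 1 colour. The HuD pulldown group (3 arrays) held RNA that came down with transgenic HuD on an anti-myc antibody and protein-G beads. The IgG pulldown group (2 arrays) held RNA from protein-G beads with non-immune IgG, and the input group (1 array) held total RNA. Array numbers follow the order of deposit. The age and strain of the mice, the transgene's promoter, whether the IgG and input RNA came from transgenic mice, and whether arrays came from separate animals are not given in the sources used here.

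HuD is the neuronal RNA-binding protein that Elavl4 encodes, and like other ELAV proteins it binds U-rich and AU-rich stretches of mRNAs. MicroRNAs are cut from long primary transcripts in the nucleus by the nuclease Drosha with its RNA-binding partner Dgcr8, carried out by exportin 5 (Xpo5) and cut again by Dicer1. The mature strand is loaded into an Argonaute protein, which recruits a GW182 protein (Tnrc6a, Tnrc6b or Tnrc6c) and through it the enzymes that shorten and uncap the target mRNA. In neurons this machinery also acts near synapses, where it restrains local translation.

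Dgcr8 RNA is itself a substrate of the Drosha and Dgcr8 complex, because it folds into hairpins that hold microRNAs. Those microRNAs are shown because the RNAs of both partners were called lower in the HuD pulldown, and cutting of these hairpins links them. All 4 mature sequences lie within Dgcr8 on chromosome 16, on its minus strand, in RefSeq's GRCm38.p6 annotation. The capitals mark the seed, bases 2 to 8 from the 5′ end, which pairs with target mRNAs, and no seed is shared among them.
mmu-miR-3618-5p (chr16:18284602-18284623): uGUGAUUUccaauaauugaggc
mmu-miR-3618-3p (chr16:18284562-18284583): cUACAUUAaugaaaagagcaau
mmu-miR-1306-5p (chr16:18284288-18284310): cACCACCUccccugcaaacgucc
mmu-miR-1306-3p (chr16:18284248-18284268): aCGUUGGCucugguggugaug
The array read the host mRNA and not these mature strands, so no value here belongs to the microRNAs.

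Signals are intensities on a linear scale, and a difference is the difference of mean log2(signal + 32) between groups with its standard error from limma. A probe set was called higher or lower at an adjusted p under 0.05 over all 22518 tested probe sets, those in the brighter part of the distribution of mean log2 signal. Of the 36 member probe sets 28 were tested, and the other 8 lay below the filter (1 of Drosha, 2 of Dgcr8, 2 of Ago3, 2 of Tnrc6a and 1 of Tnrc6c). The HuD pulldown arrays correlated with each other at 0.967 to 0.981 across tested probe sets, and the IgG pulldown arrays at 0.936. Probe sets are not independent replicates. All 3 probe sets of Elavl4 were called higher in the HuD than in the IgG pulldown, by 1.23 to 2.13 on the log2 scale, and a contribution of transgene RNA to them was not tested. Of 5 neuronal markers 1 was called higher against IgG (Snap25, 0.84) and 0 lower, beside 16% and 28.2% of all tested genes. Mean Snap25 signals were 12964 in the HuD and 7191 in the IgG pulldown. Rbfox3 was at −0.62 without passing, with all HuD arrays below the IgG arrays and the input. Neuronal markers were bright, with summed signals of 22710 to 29090 in the HuD pulldown, 18360 to 19540 in the IgG pulldown and 18190 in the input. Snap25 was the brightest of them and weighed most in these sums, while Map2, Syt1 and Tubb3 overlapped between the pulldowns. Of 5 hippocampal pyramidal and granule cell markers 0 were called, and their summed signals were 1479 to 3024, 3219 to 3398 and 2904. None of the 35 marker genes read was at 0 on any array.

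Against the IgG pulldown, most probe sets of the machinery did not pass the test, and those that passed were lower in the HuD pulldown. Called lower were 5 of the 28 tested probe sets, a share of 17.9% beside 26% of all tested probe sets: 1 of Drosha, 2 of Dgcr8, 1 of Dicer1 and 1 of Tnrc6a. Called higher were 0, beside 14.7% of all tested probe sets, and 23 did not pass. At an unadjusted p under 0.05, 0 were higher and 8 lower, beside 17.7% and 32.4% of all tested probe sets. The median difference was −0.441 for the 28 probe sets and −0.259 for all tested probe sets. The sign was negative for 24 of them. The share called lower was thus below the background, and so was that called higher, although 1 member, a probe set of Ago2, was called higher after quantile normalization and after 75th percentile centring.

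The scaling of the arrays sets where 0 lies in these differences. The median of all tested probe sets moved from −0.259 as deposited to −0.047 after quantile normalization, −0.107 after median centring and 0.057 after 75th percentile centring. The background of 14.7% higher and 26% lower became 17.8% and 16.8%, 17.3% and 18.4%, and 21.6% and 12.6% in that order. The members' median relative to that of all probe sets was −0.182 as deposited and lay between −0.267 and −0.182 under these scalings. Negative differences numbered 20, 19 and 17 of 28 in that order. The relative median rested on single arrays: it was −0.002 without IgG array 1, with 14 of 28 below the median of all probe sets, −0.058 without HuD array 2, and −0.278 without IgG array 2.

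**Figure D1:**
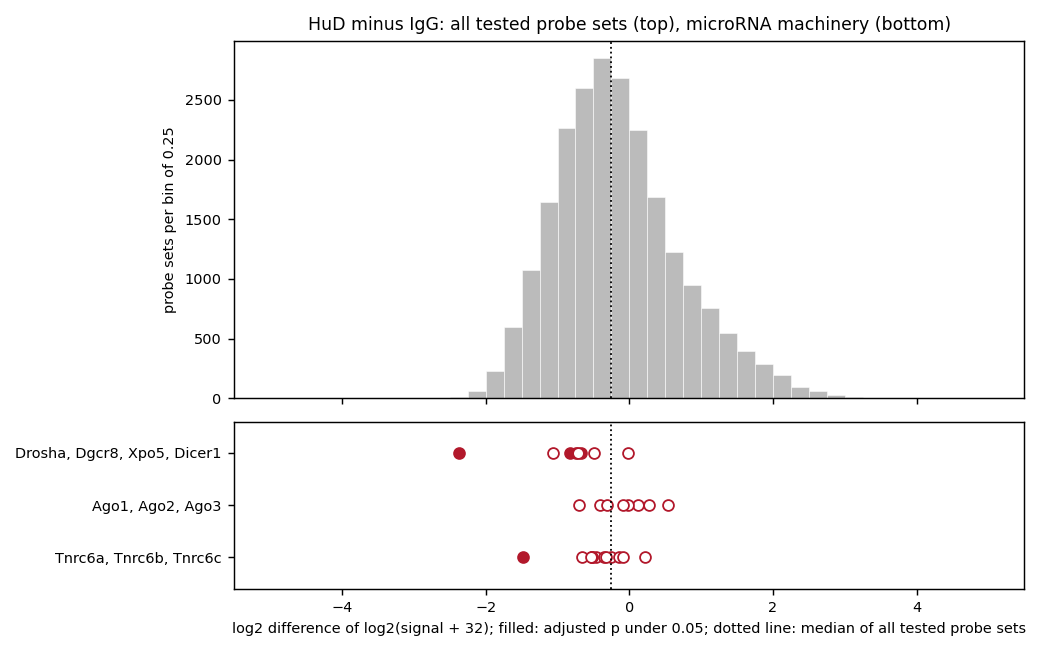
The upper panel counts all tested probe sets by their HuD minus IgG difference of log2(signal + 32), in bins of 0.25, and each circle below is a tested probe set of the machinery, filled where the adjusted p was under 0.05. The dotted line is the median of all tested probe sets (−0.259); a probe set of Drosha (−2.37) and one of Tnrc6a (−1.48) lie farthest to the left.

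The RNAs of the processing steps, from nuclear cleavage to dicing, carried 4 of the 5 lower calls. These were 4 of 8 tested probe sets, beside 26% of all tested probe sets. Both Dgcr8 calls and the Dicer1 call were lost after each of the other scalings. All 8 tested probe sets of the processing RNAs had a negative HuD minus IgG difference as deposited, with a median of −0.73. After each of the other scalings 7 of 8 did. The positive exception there was a Dicer1 probe set. Relative to all tested probe sets the processing median was −0.471 as deposited and −0.472 to −0.466 under the other scalings. With an array left out it lay between −0.624 and −0.403.

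Drosha, the nuclease that opens the pathway, gave the largest difference of the members. Probe set 1438505_s_at read 651, 1038 and 752 in the HuD pulldown, 5297 and 3433 in the IgG pulldown and 2222 in the input. Every HuD array lay below the input, and both IgG arrays lay above it. The HuD signal was 5.17-fold lower than in the IgG pulldown (difference −2.37 ± 0.29, adjusted p = 0.000349 by limma) and 2.71-fold lower than in the input (−1.44 ± 0.37, adjusted p = 0.0168 by limma). Within the title suffix le1 the difference from IgG was −2.96, and within the suffix e1_le1 it was −1.92. The difference from IgG stayed past the threshold in all 15 alternatives, at −2.68 to −2.06. That from the input did not pass without HuD array 1 (−1.30, adjusted p = 0.0694 by limma). The suffix _s_at marks a probe set that can match transcripts of more than 1 gene.

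A second Drosha probe set, 1428656_at, read 48.9, 87.4 and 53.8 in the HuD pulldown, 325 and 75.7 in the IgG pulldown and 183 in the input. Here the IgG arrays lay apart, and HuD array 2 lay above IgG array 2. The difference of −1.06 ± 0.42 did not pass (adjusted p = 0.0601 by limma). Without IgG array 2 it was −1.93 and passed, without IgG array 1 it was −0.20 and did not, and within the suffix e1_le1 it was −0.09. Both tested probe sets of Drosha thus pointed the same way, with 1 of them called.

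Dgcr8, the RNA-binding partner of Drosha, was called lower by both of its tested probe sets. Probe set 1455311_at read 124, 150 and 107 in the HuD pulldown, 262 and 235 in the IgG pulldown and 196 in the input. Probe set 1435439_at read 42.2, 48.4 and 60.4 in the HuD pulldown, 98.5 and 100.2 in the IgG pulldown and 104 in the input. In each the HuD arrays lay below both IgG arrays and below the input. The differences from IgG were −0.83 ± 0.26 (adjusted p = 0.0247 by limma) and −0.68 ± 0.25 (adjusted p = 0.0433). Those from the input were −0.53 and −0.73 and did not pass.

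The Dgcr8 calls lay near the threshold. Probe set 1455311_at passed in 9 of 15 alternatives and did not pass without IgG array 1 (−0.76), HuD array 1 (−0.82) or HuD array 3 (−0.74). Probe set 1435439_at passed in 4 of 15 and in none that left out an array, with values of −0.77 to −0.61. Neither passed after quantile normalization, median centring or 75th percentile centring.

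Xpo5, the nuclear export receptor of hairpin precursors, had the HuD arrays below all other arrays in both probe sets without a call. Probe set 1428560_at read 40.4, 53.2 and 18.7 in the HuD pulldown, 89.6 and 70.4 in the IgG pulldown and 94.7 in the input. Its difference from IgG was −0.72 ± 0.28 (adjusted p = 0.0561 by limma), and it passed without HuD array 2 (−0.88). Probe set 1451468_s_at read 50.6, 35.5 and 46.7, then 76.4 and 74.2, then 84.1. Its difference from IgG was −0.50 ± 0.24, with an adjusted p of 0.117 by limma.

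Dicer1, which cuts the hairpin precursor into the short duplex, was read differently by its probe sets. Probe set 1460571_at read 289, 289 and 258 in the HuD pulldown, 311 and 256 in the IgG pulldown and 116 in the input. Both kinds of pulldown lay above the input and overlapped each other. The HuD signal was 2.09-fold higher than in the input (1.07 ± 0.32, adjusted p = 0.0327 by limma), and the difference from IgG was −0.02 ± 0.26. The IgG difference from the input had nearly that size, 1.08, without passing (adjusted p = 0.288 by limma). Without HuD array 1, 2 or 3 the HuD difference from the input was 1.04, 1.04 and 1.11 and did not pass.

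The dimmer probe set 1427941_at of Dicer1 read 16.8, 31.5 and 15.1 in the HuD pulldown, 66.7 and 46.6 in the IgG pulldown and 36.0 in the input. All 3 HuD arrays lay below the others. The difference from IgG was −0.74 ± 0.25 (adjusted p = 0.0317 by limma) and passed in 7 of 15 alternatives. It did not pass without IgG array 1 (−0.58), HuD array 1 (−0.69) or HuD array 3 (−0.66), nor after the other 3 scalings. No common direction against IgG was thus read for Dicer1.

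**Figure D2:**
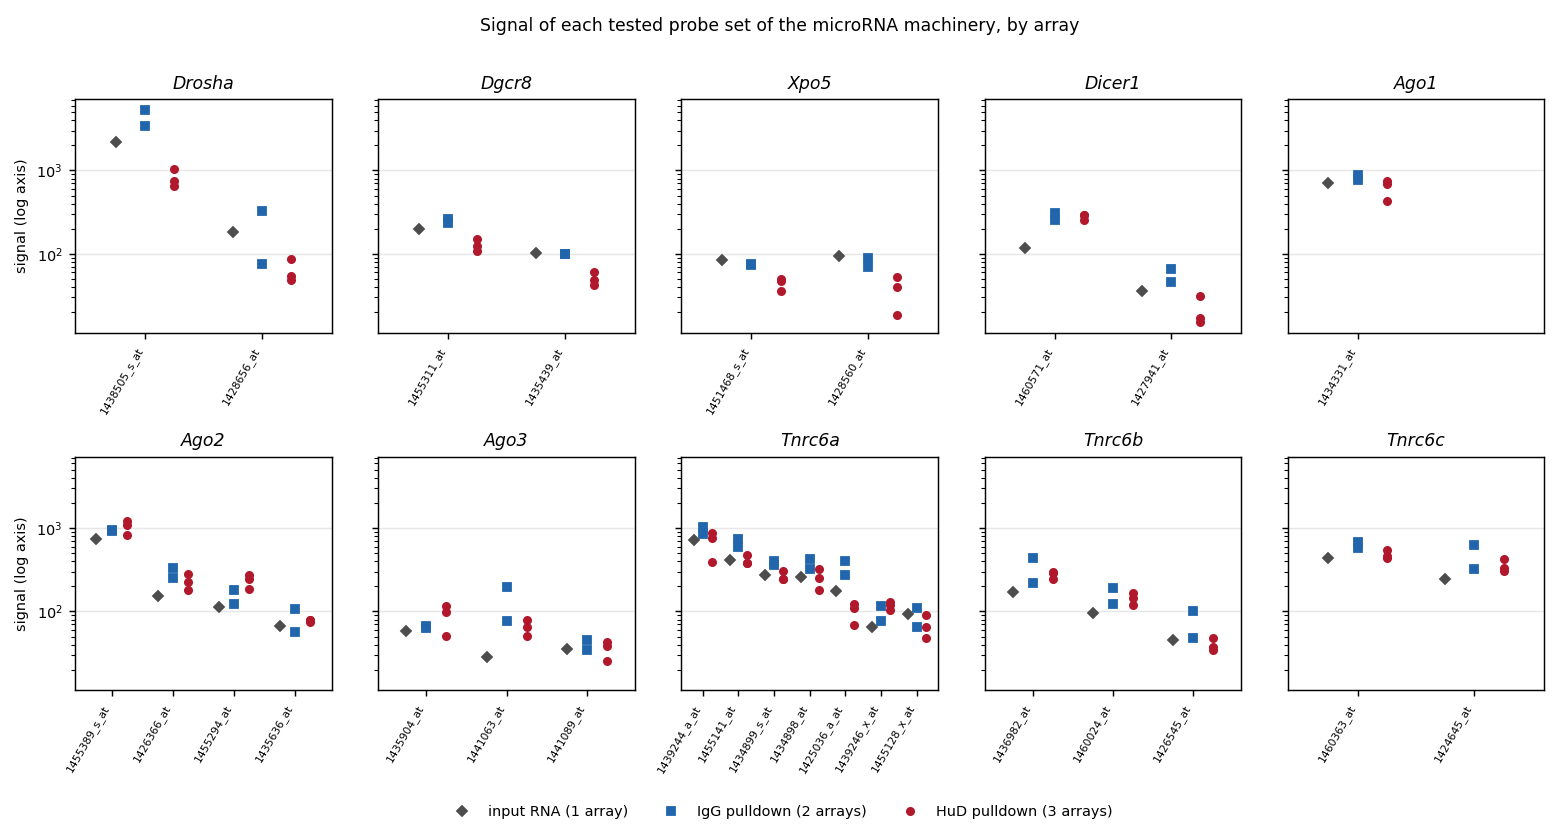
Signal of every tested probe set on each array, on a log axis, with input RNA as diamonds, the IgG pulldown as squares and the HuD pulldown as circles. For Drosha, Dgcr8 and Xpo5 the HuD circles lie below the input diamond in every panel, while for Ago2 they lie above it; heights of different probe sets are not comparable.

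The Argonaute RNAs gave no call in any comparison. Of 8 tested probe sets of Ago1, Ago2 and Ago3, 0 passed against IgG, with 3 positive and 5 negative differences and a median of −0.051. Of all tested probe sets 14.7% were called higher and 26% lower in that comparison. Their median relative to all tested probe sets was 0.208 as deposited and 0.114 to 0.208 under the other scalings, but 0.018 without IgG array 2. Against the input 7 of 8 were positive, with a median of 0.42, and the IgG arrays were above the input by a median of 0.27.

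Ago2 is the Argonaute that can itself cut a fully paired target. Probe set 1455389_s_at of Ago2 read 1097, 819 and 1217 in the HuD pulldown, 958 and 931 in the IgG pulldown and 732 in the input, so the pulldowns overlapped (0.12 ± 0.27). Probe set 1455294_at read 272, 184 and 247, then 181 and 121, then 113. Here every HuD array was above both IgG arrays, by a margin of 184 to 181 at the closest, and the difference of 0.54 ± 0.28 did not pass (adjusted p = 0.139 by limma). Among the 28 tested member probe sets no other had all HuD arrays above all IgG arrays. It was called higher after quantile normalization and after 75th percentile centring, where it reached 0.86. The other probe sets of Ago2 overlapped between the pulldowns, at −0.31 and −0.02. Against the input all 4 were positive, at 0.14 to 0.86, and none passed.

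Ago1, the other widely expressed Argonaute with 1 probe set here, read 756, 430 and 685 in the HuD pulldown, 876 and 766 in the IgG pulldown and 698 in the input. The difference from IgG was −0.41 ± 0.29 and did not pass (adjusted p = 0.276 by limma), with all HuD arrays below both IgG arrays. Ago3 gave 0.27, −0.70 and −0.09 in its 3 tested probe sets. The middle value, of 1441063_at, came from HuD signals of 80.1, 50.5 and 65.1, IgG signals of 194 and 76.1 and an input signal of 28.6. It passed without IgG array 2 (−1.23) but was −0.16 without IgG array 1, and no other array reached the signal of IgG array 1. Ago4, the remaining Argonaute gene, which was not among the members, was at 0.35 ± 0.27 in its brightest probe set and −0.27 in the other, and neither passed.

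The GW182 family RNAs, which encode the scaffolds between Argonaute and the deadenylases, gave 1 lower call among 12 tested probe sets. Among all tested probe sets 26% were called lower. Of the 12, 11 had a negative difference from IgG as deposited, with a median of −0.412. Negative differences were 9, 9 and 8 after quantile normalization, median centring and 75th percentile centring. Relative to all tested probe sets the median was −0.152, and it was −0.012 without HuD array 2, −0.073 without IgG array 1 and −0.333 without IgG array 2. Against the input the median was −0.029, and the IgG arrays were above the input by a median of 0.482, with 11 of 12 positive and 0 called.

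The call was that of Tnrc6a probe set 1425036_a_at. It read 124, 69.1 and 110.4 in the HuD pulldown, 407 and 271 in the IgG pulldown and 178 in the input. The groups did not overlap, and the input lay between them. The HuD signal was 2.79-fold lower than in the IgG pulldown (−1.48 ± 0.29, adjusted p = 0.00286 by limma). The call held in all 15 alternatives, at −1.75 to −1.16, and was −1.50 and −1.34 within the title suffixes le1 and e1_le1. Against the input the difference was −0.68 ± 0.37 and did not pass, while the IgG arrays were above the input by 0.80.

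The other tested Tnrc6a probe sets did not share that size. Their differences from IgG ran from −0.66 to 0.22, and 0 of 6 passed. The brightest, 1439244_a_at, read 769, 395 and 874 in the HuD pulldown, 1033 and 858 in the IgG pulldown and 710 in the input, so the pulldowns overlapped (−0.52 ± 0.33). Probe set 1455141_at read 378, 380 and 477, then 749 and 590, then 415. Its HuD arrays lay on both sides of the input and below both IgG arrays, and its difference of −0.66 ± 0.27 (adjusted p = 0.0658 by limma) passed without IgG array 2 (−0.82) and was −0.495 without IgG array 1. Whether these probe sets read different Tnrc6a transcripts was not tested.

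Tnrc6b gave −0.14, −0.09 and −0.54 against IgG, and Tnrc6c gave −0.36 and −0.33, none past the threshold. For Tnrc6b probe set 1436982_at the HuD signals were 301, 288 and 247, the IgG signals 433 and 218 and the input signal 173. For Tnrc6c probe set 1460363_at they were 546, 439 and 464, then 570 and 684, then 438. The Tnrc6b pulldowns overlapped there, while for Tnrc6c the HuD arrays lay between the input and the IgG arrays. Tnrc6b probe set 1426545_at passed without IgG array 2 (−0.91) but was −0.17 without IgG array 1, where IgG array 1 read 102 and IgG array 2 read 48.7.

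**Figure D3:**
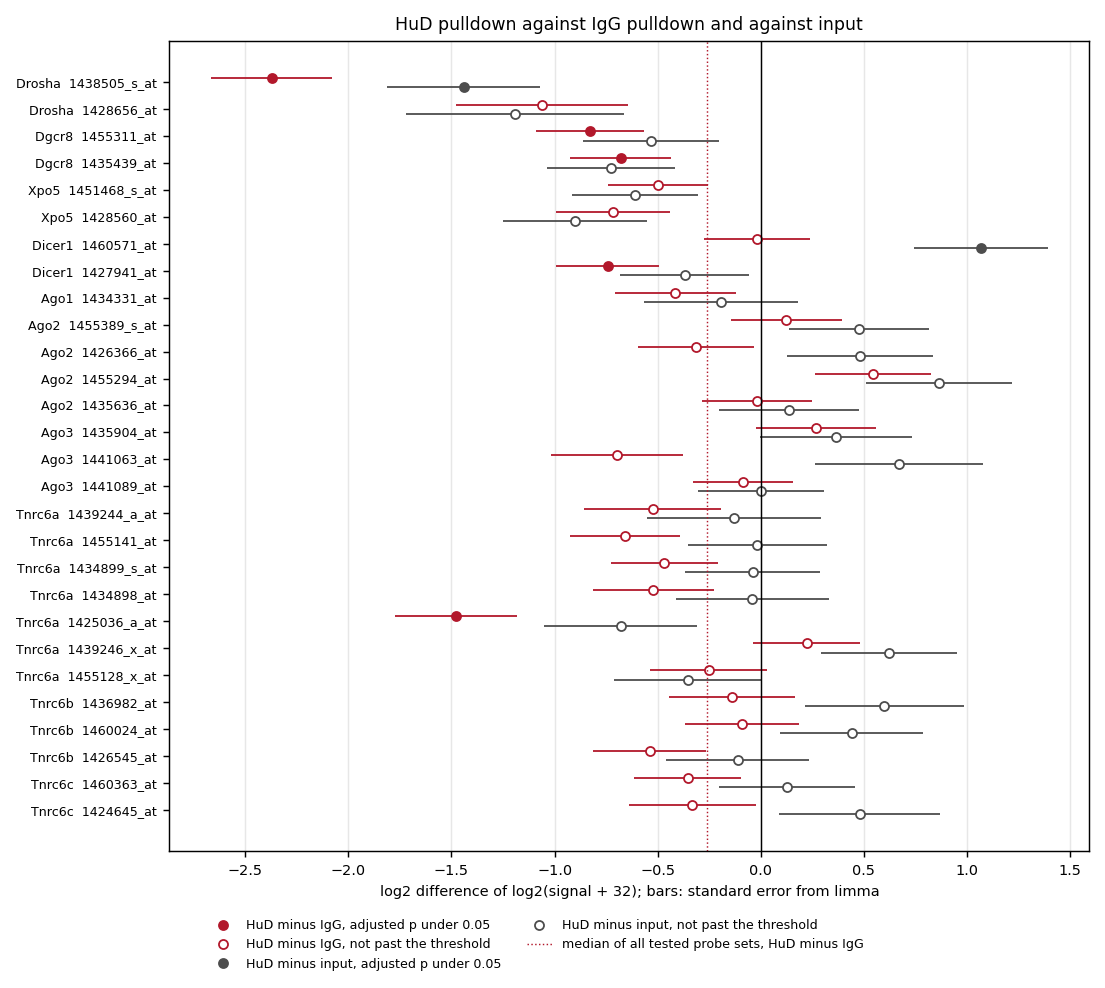
HuD minus IgG (red) and HuD minus input (grey) differences of log2(signal + 32) for the 28 tested probe sets, with bars of 1 standard error from limma and filled symbols where the adjusted p was under 0.05. The dotted line is the median of all tested probe sets for HuD minus IgG (−0.259); a probe set of Drosha (−2.37 and −1.44) is the only one filled in both comparisons.

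Against the input, the machinery RNAs as a whole were not shifted below the background. Of 28 tested probe sets 1 was called higher (Dicer1 1460571_at) beside 9.75% of all tested probe sets, and 1 was called lower (Drosha 1438505_s_at) beside 15.6%. At an unadjusted p under 0.05, 2 were higher and 4 lower, beside 14.8% and 24.6%. The median was −0.029, against −0.137 for all tested probe sets. By role the medians were −0.669 for the processing RNAs, 0.42 for the Argonautes and −0.029 for the GW182 family. The background split of 9.75% and 15.6% became 10.5% and 9.85% after quantile normalization, 8.47% and 17.7% after median centring and 17% and 6.73% after 75th percentile centring. Both comparisons of HuD share its arrays, and the input is 1 array that was assumed to vary like the pulldowns.

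The IgG pulldown, the background of the beads, was itself compared with the input. Of 28 probe sets 0 were called higher by limma, beside 0.235% of all tested probe sets, and 0 were called lower, beside 0.00444%. At an unadjusted p under 0.05, 3 were higher and 0 lower, beside 6.59% and 2.94%. The median difference was 0.396 against 0.004 for all tested probe sets, and 23 of 28 were positive. For 21 of 28 both IgG arrays lay above the input, and the share of all tested probe sets for which they did was not counted. A negative HuD minus IgG value of a member could thus lie beside a HuD level near the input, as for 4 of the 7 tested Tnrc6a probe sets (−0.13 to −0.02 against the input), or below it, as for Drosha, Dgcr8 and Xpo5.

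Some markers of other cell types were also lower in the HuD pulldown: over 6 cell types 11 of 23 tested markers were called lower and 1 higher, beside 28.2% and 16% of all genes tested by their brightest probe set. Of the astrocyte markers 3 of 5 were called lower against IgG, with summed signals of 3121 to 5018 in the HuD pulldown, 6513 to 6710 in the IgG pulldown and 6992 in the input. Of the microglia markers 2 of 4 tested were called lower, with sums of 1126 to 1608, 2402 to 3641 and 3841. Oligodendrocyte markers gave 2 of 4 (9204 to 13270, 13660 to 20670 and 12260), and endothelial markers gave 1 of 2 tested (60.7 to 77.3, 165 to 247 and 144). Interneurons, which are neurons, gave 3 of 5 markers lower (Slc32a1 −1.90, Sst −1.52 and Gad1 −1.43) and 1 higher (Pvalb 1.44). Gad2 at 0.22 did not pass. The interneuron sums were 4848 to 7256, 7227 to 8034 and 7792. Choroid plexus markers gave 0 of 3. The part of these cell types in the lower machinery signals was not tested. The groups compared are pulldowns and input RNA, so a marker's difference between them does not measure how many cells of a type were present.

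Around the core genes, a list of 69 partner and downstream genes was read by the brightest probe set of each gene. Of these, 63 were on the array under a single symbol and 58 were tested, while the other 6 were not analysed here. Called higher against IgG were 14 (24.1%), beside 16% of all tested genes, and called lower were 17 (29.3%), beside 28.2%, with 27 not past. The median was −0.27, and that of all tested genes −0.286. Against the input 10 were called higher (17.2%), beside 10.6% of all tested genes, and 6 lower (10.3%), beside 18.5%. Of the 31 called genes 12 had 1 tested probe set and 4 had all tested probe sets called alike. In 13 another tested probe set did not pass, and in Ran and Ddx5 another was called the opposite way.

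Partners of the microprocessor divided. Of 13 tested genes 4 were called higher by their brightest probe set (Khsrp, Tardbp, Srsf3 and Ddx5), 30.8% beside 16% of all genes. Called lower were 3 (Srrt, Hnrnpa1 and Dhx9), 23.1% beside 28.2%. Khsrp, a KH-domain protein that promotes cleavage of some hairpins, read 751, 1601 and 1572 in the HuD pulldown, 197 and 391 in the IgG pulldown and 197 in the input. All HuD arrays lay above all others (2.03 ± 0.37, adjusted p = 0.00201 by limma), a second probe set was also called higher (1.08), and the remaining tested one at 0.52 did not pass. Srrt, which links the cap-binding complex to microRNA processing, read 87.9, 147 and 57.0, then 398 and 271, then 200. It was called lower (−1.54 ± 0.33, adjusted p = 0.00385 by limma), and the input lay between the pulldowns. Hnrnpa1, which binds the miR-18a hairpin in human cells, was called lower in its brightest probe set (−1.17 ± 0.29), and its second tested probe set at −0.36 did not pass. No direction is given for Ddx5, since 3 of its other tested probe sets were called lower, at −0.88 to −0.73. Of the other 4 tested probe sets of Tardbp none passed, at −0.33 to 0.66. Of the smaller calls, Ddx5 was at 0.45 without IgG array 2, Srsf3 at 0.59 without IgG array 1 and Dhx9 at −0.79 without IgG array 1, none then past the threshold.

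By their brightest probe sets, the factors beside exportin 5 and Dicer were called lower or did not pass. Tarbp2, a double-stranded RNA-binding partner of Dicer, read 11.0, 36.0 and 40.7 in the HuD pulldown, 64.8 and 70.8 in the IgG pulldown and 84.5 in the input. Its call (−0.74 ± 0.28, adjusted p = 0.0498 by limma) held in 5 of 15 alternatives and was lost without either IgG array (−0.78 and −0.70), without HuD array 1 (−0.50) or without HuD array 2 (−0.83). Prkra, the other such partner, was at −0.44 ± 0.27 and did not pass. Ran, the GTPase that exportins need, was called lower in its brightest probe set (−0.86 ± 0.28, adjusted p = 0.0289 by limma), which did not pass without IgG array 2 (−0.47) or with HuD array 1, 2 or 3 left out (−0.75, −0.90 and −0.93). Of its other tested probe sets 3 were called lower, at −1.14 to −0.90, and 1 was called higher, at 1.26, so no direction is given for Ran.

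Genes of Argonaute loading and import gave 5 lower calls (41.7%) and 1 higher (8.33%) among 12 tested, beside 28.2% and 16% of all genes. Hspa8, the constitutive Hsc70 chaperone used in loading, read 3833, 5492 and 4519 in the HuD pulldown, 11843 and 12826 in the IgG pulldown and 8040 in the input. All 3 of its tested probe sets were called lower, at −2.24 to −1.43. Limd1, an adaptor between Argonaute and the silencing complex, was called lower in 1 probe set (−1.01 ± 0.25), and the other at −0.42 did not pass. Its call was lost after quantile normalization and 75th percentile centring. Ipo8, an importin that binds Argonautes, read 983, 1201 and 875, then 432 and 327, then 283, and was called higher against IgG (1.35 ± 0.27) and against the input (1.73). The other lower calls were Tsnax (−1.32), Fkbp5 (−0.87) and Fkbp4 (−0.84, with a second probe set at 0.07 not past). Each of these calls was lost without IgG array 1, HuD array 1 or HuD array 3. Tsnax, whose pulldowns overlapped, had a value of −0.39 with IgG array 1 left out and −2.25 with IgG array 2 left out.

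Genes that remove the tail and cap of silenced mRNAs were called in both directions. Of 22 tested genes 8 were called higher (36.4%) and 4 lower (18.2%), beside 16% and 28.2% of all genes, with a median of 0.425. The microprocessor partners had a higher share of 30.8%. The higher ones were the deadenylase genes Cnot6l, Cnot6 and Cnot7, the subunit genes Cnot2 of Ccr4-Not and Pan3 of Pan2-Pan3, and Lsm1, Patl1 and Ddx6 of decapping. The lower ones were Edc4 and Edc3, which are enhancers of decapping, Cnot3 and Pan2. Subunits of 1 complex were called in both directions, as Cnot6l and Cnot3, or Pan3 (1.57) and Pan2 (−0.72).

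Cnot6l, a catalytic subunit of the Ccr4-Not deadenylase, read 1872, 1327 and 1296 in the HuD pulldown, 501 and 360 in the IgG pulldown and 530 in the input. All 4 of its probe sets were called higher against IgG, at 1.17 to 1.72, and against the input, at 1.43 to 1.72. Lsm1, of the ring that binds shortened tails, read 744, 914 and 925, then 142 and 465, then 376. It was called higher (1.59 ± 0.38), and it still passed, at 0.84, when IgG array 1 was left out. Edc4, a scaffold of the decapping complex, read 89.3, 105.0 and 112, then 626 and 331, then 279. It was called lower against IgG (−1.87 ± 0.30, adjusted p = 0.00103 by limma) and against the input (−1.22).

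The counts of these tail and cap genes moved with the setting, to 6 to 11 higher and 1 to 4 lower. The higher calls of Cnot2 and Cnot6 were lost without IgG array 1 (0.65 and 0.69), HuD array 1 (0.86 and 0.85) or HuD array 3 (0.755 and 0.82). Other tested probe sets of Cnot6 (3), Cnot7 (2) and Ddx6 (2) did not pass, at −0.22 to 0.54. The call of Ddx6 was lost without HuD array 2 or IgG array 2 (0.64), and Cnot7 kept its call at 0.73 with IgG array 1 left out. Of the lower calls, Cnot3 was lost without HuD array 1 or 3, and Edc3 and Pan2 without 4 of the 5 pulldown arrays in turn.

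Of 8 tested genes of tailing and turnover 1 was called higher (12.5%) and 3 lower (37.5%), beside 16% and 28.2% of all genes. Tut7, a terminal uridylyl transferase that marks microRNA precursors, read 191, 212 and 225 in the HuD pulldown, 654 and 472 in the IgG pulldown and 510 in the input. Both its probe sets were called lower against IgG, at −1.29 and −0.93. Zswim8, the ubiquitin ligase adaptor of target-directed microRNA decay, was called lower (−1.10 ± 0.35) with IgG signals of 136 and 38.7. Its value was −0.47 without IgG array 1 and −1.72 without IgG array 2, and the call was lost without IgG array 1 or any HuD array. Xrn2, a nuclear exonuclease, was called lower (−0.75) and was at −0.49 without IgG array 1. Its call was also lost without any HuD array, and its other tested probe sets, at −0.30 and −0.08, did not pass. Tent2, a cytoplasmic poly(A) polymerase, was called higher (0.91 ± 0.27), and its second probe set at 0.33 did not pass. Its call was lost without HuD array 1 or 3 or IgG array 1 (0.65).

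**Figure D4:**
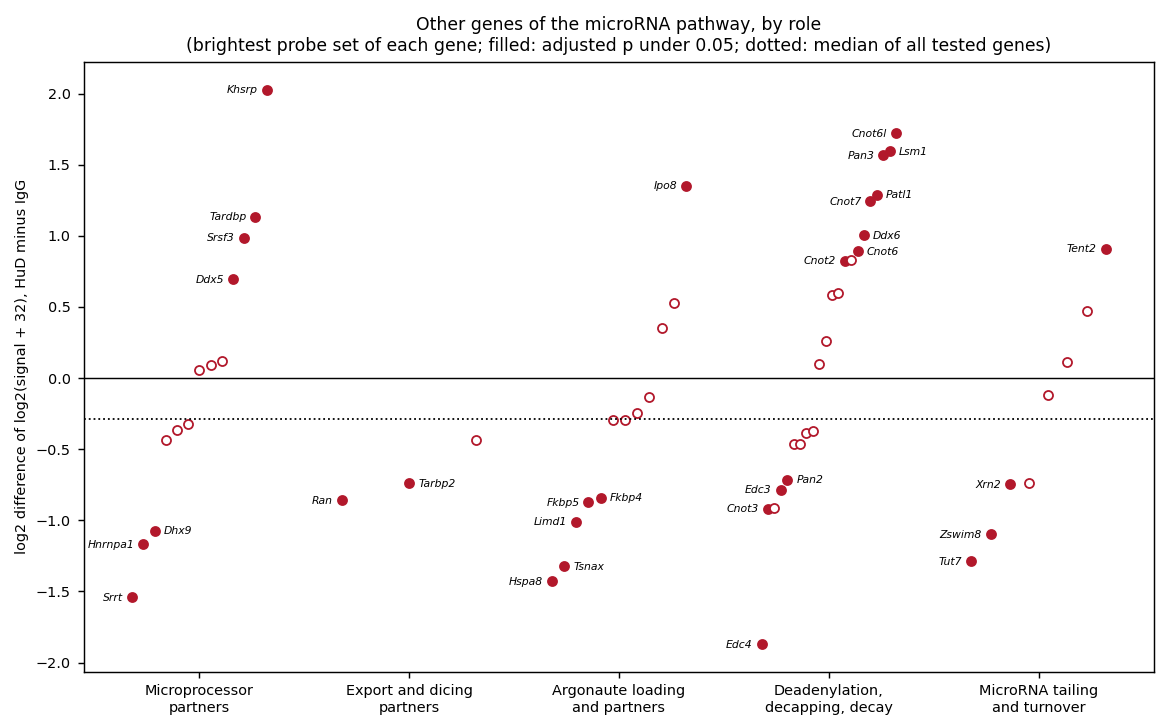
HuD minus IgG difference of log2(signal + 32) for the 58 tested partner and downstream genes by role, each read by its brightest probe set, filled and named where the adjusted p was under 0.05. The dotted line is the median of all tested genes (−0.286); the tail and cap genes hold 8 filled points above 0 and 4 below.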

How the data were processed

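The deposited values were intensities, 1 linear signal per probe set and array. The mean without the lowest and highest 2% was 150 on all 6 arrays, so the authors had scaled the arrays; their software is not given in the sources used here. Of 45101 probe sets, 64 array controls were left out. The platform annotation gave 34945 probe sets 1 symbol, 932 several and 9160 none; 0 symbols changed through RefSeq, where all 10 members matched. Log2(signal + 32) was fitted with limma 3.58.1 in R 4.3.3, with group means, all 6 arrays and eBayes with a trend (3 residual degrees of freedom, 9.09 from the prior). Tested were 22518 probe sets with a mean log2 value above 5.779, a signal of about 22.9, with Benjamini-Hochberg adjustment over them. The fit, but not the filter, the scaling or the annotation, was tested on simulated arrays whose changes were larger than most member differences. Differences understate changes of dim probe sets, and the number of arrays limits precision. Since no label says that animals or preparations were separate, the p-values cover the spread between arrays only, which may be technical.

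The members and lists were chosen with earlier results of these data known. Named genes were the members, Elavl4, Ago4, Tarbp2 and Prkra, and per role of the partner list up to 3 genes with the largest absolute difference among those past the threshold whose pulldowns did not overlap. Other partners were named, after their values were seen, to say which genes made up a count of calls. Some titles end in le1 (HuD array 1, IgG array 1, the input) and others in e1_le1; what that marks is not given. Alternatives were other pseudocounts, no filter, other scalings, no trend, fewer arrays, blocks, genes in place of probe sets and each array left out.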

Additional observations from a re-analysis of the deposited data

How the results depend on the processing

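The count of members called lower against IgG, 5 as reported, was 3 without the filter and 3 when the title suffix was a block. It was 2 after quantile normalization, median centring or 75th percentile centring. It was also 2 with 1 probe set per gene, with the probe sets of a gene averaged, and without HuD array 1 or HuD array 3. The share of all tested probe sets called lower moved too. It was 26% as reported, 8.7% without the filter and 24% with the title suffix as a block. Without HuD array 1 it was 14.2%, and without HuD array 3 it was 18.1%. Leaving out an IgG array left 1 array in that group. The members' median difference was then −0.184 without IgG array 1 and −0.566 without IgG array 2, beside −0.183 and −0.287 for all tested probe sets. The count called higher was 1 after quantile normalization or 75th percentile centring in place of 0. With title suffix and number as a replicate block, 6 were lower. The labels do not say that these numbers pair samples, and 1 residual degree of freedom was left. The p-values of this setting are not printed, but it was counted among the alternatives given for single probe sets and partner genes against IgG. Dgcr8 probe set 1455311_at and Dicer1 probe set 1427941_at passed under it, and Dgcr8 probe set 1435439_at did not. Against the input, members called higher, 1 as reported, were 0 without the filter, with the suffix as a block or with probe sets averaged, 2 after quantile normalization or with only the arrays compared, 3 after 75th percentile centring and 0 to 2 with an array left out. Members called lower, 1 as reported, were 0 without the filter or after 75th percentile centring, 3 with only the arrays compared and 0 to 3 with an array left out. For IgG against the input, 0 to 1 were called higher with an array left out. No called member difference changed sign under these alternatives. Partner genes called against IgG, 14 higher and 17 lower, were 11 and 8 without the filter, 18 and 7, 16 and 10 and 19 and 5 under the other scalings in the order above, 9 and 7 without HuD array 1, 11 and 8 without IgG array 1 and 9 and 8 without HuD array 3. The cause of these changes was not tested. For the partner counts, the shares of all genes called were not counted under each of these settings. In a group left with 1 array, that array was assumed to vary like the others.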

Other observations

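Some probe sets read the host transcripts of microRNAs, a list put together after the files had been read. Mir9-3hg, a host of miR-9, which is abundant in brain, read 31.7, 38.5 and 54.6 in the HuD pulldown, 146 and 143 in the IgG pulldown and 97.6 in the input. The HuD arrays lay below all others, and the difference from IgG was −1.27 ± 0.25 (adjusted p = 0.00287 by limma). Its microRNAs are shown because this host had the largest difference among those called; capitals mark the seed, and both lie on the plus strand in RefSeq's GRCm38.p6 annotation.
mmu-miR-9-5p (chr7:79505279-79505301): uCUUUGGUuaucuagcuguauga
mmu-miR-9-3p (chr7:79505318-79505339): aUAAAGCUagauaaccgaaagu
The array did not read these mature strands. A probe set annotated to Mir1931 was also called lower (−1.09 ± 0.27, adjusted p = 0.00797 by limma), with signals of 20.3, 42.0 and 35.9 in the HuD pulldown, 133 and 81.0 in the IgG pulldown and 4.37 in the input. Mir99ahg, the host of miR-99a, was called higher in its tested probe set (0.86 ± 0.25, adjusted p = 0.0171 by limma), with signals of 51.7, 55.9 and 60.7, then 8.11 and 26.6, then 24.7. The hosts of miR-124, Mir124-2hg (−0.35) and Mir124a-1hg (−0.81), did not pass. Nor did Mir22hg (−0.44), Mir138-2 (−0.56), Mir425 (−0.22) or the brighter probe set of Mir670hg (0.46). The remaining probe sets of this list lay below the filter. Of all tested probe sets 26% were called lower and 14.7% higher against IgG, so these calls are not read as a trait of the hosts.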
